A study of Mus musculus with 23 samples.

Results

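The comparison described here sets 7 libraries of Sox2-positive cells against 4 libraries of Sox2-negative cells, all from batch B, out of 23 libraries in the series. Members were chosen by the batch and population in the labels, not by any measured value. Both populations came from the labial cervical loop of lower incisors of mice at postnatal day 2. All donors were of the Sox2-GFP line, in which the endogenous Sox2 promoter drives green fluorescent protein, so cells on both sides of the gate came from reporter tissue and no treatment was applied. The tissue was dissociated with collagenase and neutral protease, cells were sorted by fluorescence, and RNA was turned into libraries by Smart-seq2, a full-length cDNA method, with Tn5 tagmentation. The labels call the Sox2-positive cells dental epithelial stem cells. Whether libraries of 1 population came from separate mice or from portions of 1 sort is not stated there, so every p-value measures the spread between libraries, which may be technical.

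The labial cervical loop is a pocket of epithelium at the growing end of the mouse incisor, a tooth that grows throughout life. Its outer and inner epithelium surrounds a loose core, the stellate reticulum, and lies against dental mesenchyme that carries vessels, nerves and blood cells. Stem cells of the loop give rise to transit-amplifying cells and then to ameloblasts, the cells that secrete enamel, under signals of the fibroblast growth factor, bone morphogenetic protein, Wnt and hedgehog families exchanged with the mesenchyme.

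The total estimated count ranged from 2305780 to 7111500 in Sox2-positive and from 6397410 to 9541440 in Sox2-negative libraries. A floor of 3 counts corresponded to 0.328 to 1.28 CPM, the share of a library's counts expressed per 1e6, after scaling between libraries, and covers counting error only. At least 1 count was found for 19507 ± 1243 genes (SD, n = 7) in Sox2-positive and 21846 ± 1692 (n = 4) in Sox2-negative libraries (two-sided exact permutation test, p 0.0424, adjusted p 0.0424 over 4 measures). With counts thinned to the smallest total, the difference in genes detected was -1009 rather than -2339. The first principal component separated the populations and carried 66.6% of the variance. Libraries numbered 1 and 2 stood apart from the higher numbers within each population, and 286 genes (1.81%) were called between these sub-groups, which the labels do not name. Within the Sox2-negative population, libraries 3 and 4 also lay far from each other on later components.

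edgeR's quasi-likelihood test called 8623 of 15765 genes, or 54.7%, with a Benjamini-Hochberg adjusted p below 0.05. Of all tested genes, 4268 (27.1%) were higher and 4355 (27.6%) were lower in Sox2-positive cells. A fold over 2 was added to the call in 36.6% of genes, with 16.5% higher and 20.1% lower. The median log2 fold change, always given as Sox2-positive minus Sox2-negative, was 0.01 over all tested genes. The 7 Sox2-positive values all lay above the 4 Sox2-negative values for 21% of genes, and all below for 17.9%. With such shares, a single call carries little by itself, and the lists below are read against these percentages. In sorted bulk samples, fewer cells of a type and less RNA per cell cannot be told apart.

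Sox2 itself was the gene behind the sort. It lies on chromosome 3 from 34650405 to 34652461 (GRCm38, GENCODE M21) and encodes a transcription factor of stem and progenitor cells. Sox2-positive libraries ranged from 13.5 to 20.2 CPM with a median of 15.4. Sox2-negative libraries 2, 3 and 4 had no count, and library 1 had 10 counts, or 1.05 CPM. The groups did not overlap, and the log2 fold change was 5.57 (SE 0.74, adjusted p 1.02e-05). Without Sox2-negative library 1, which leaves no count in that population, it was 9.46, a value that depends on the fit's prior count. The overlapping antisense transcript Sox2ot was not examined, since the libraries are not stated to keep the strand.

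The structural genes of epithelium were higher in Sox2-positive cells almost throughout. All 13 cadherin, desmosome and adhesion genes listed were tested and all rose, with a median log2 fold change of 3.17. Of 16 keratins, 12 were tested, 11 rose and 0 fell (median 3.75). Of 16 claudin and tight junction genes, 15 were tested, 12 rose and 0 fell (median 3.74, or 3.21 with genes at 0 counts in 1 population set to their bound). Of 12 hemidesmosome and basement membrane genes, all tested, 10 rose and 1 fell (median 2.18). The plot of fold changes by list shows the medians of these 4 lists above 0 and those of the mesenchymal, endothelial and blood lists below it, while single members, such as Tjp1 and Snai2, lay on the other side from their list's median.

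**Figure D1:**
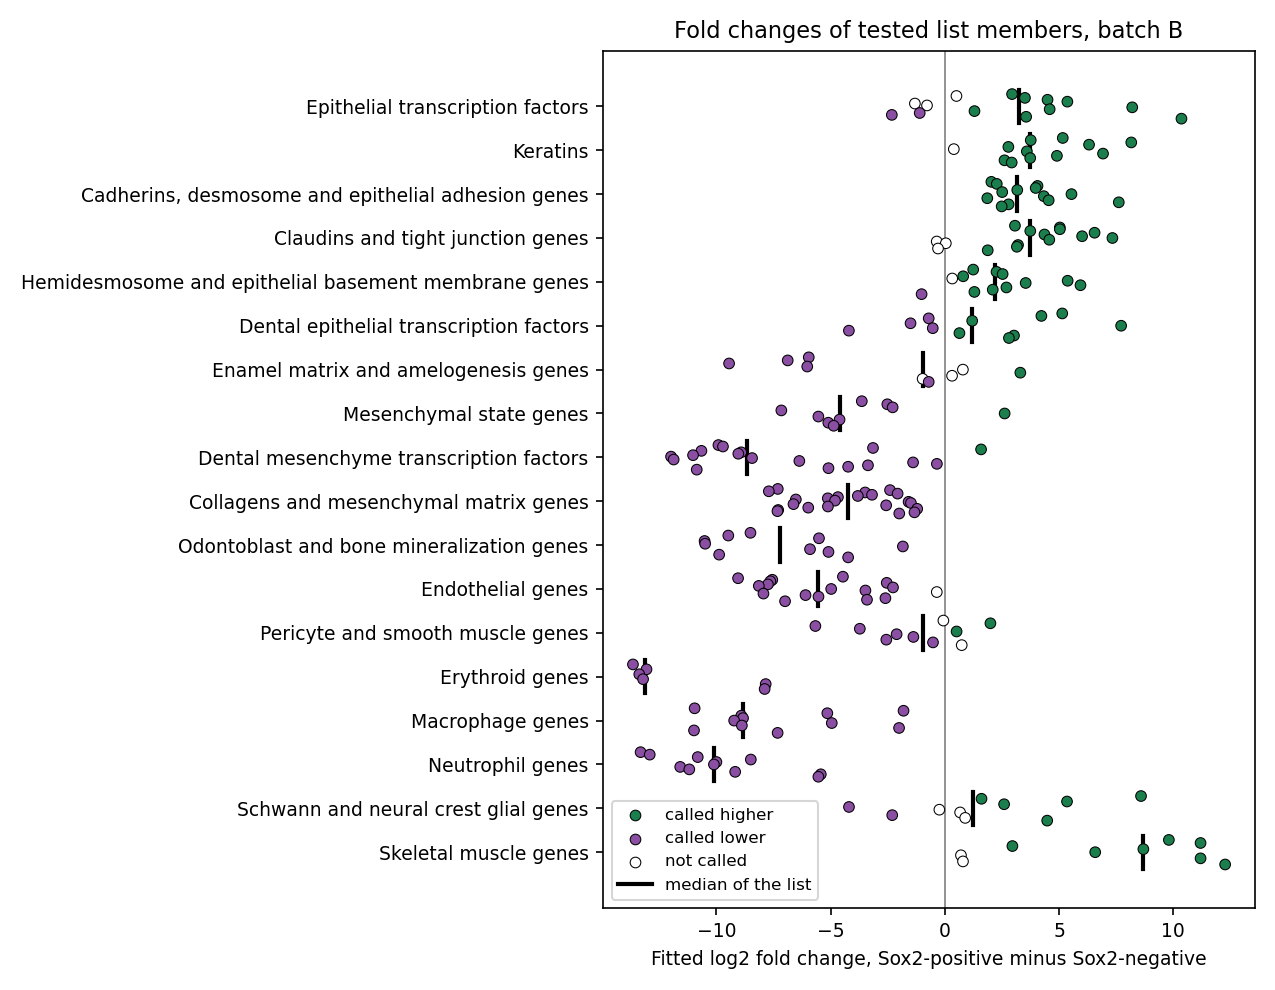
Fitted log2 fold change (horizontal axis, Sox2-positive minus Sox2-negative) of each tested member of 18 gene lists, 1 point per gene, with a bar at the list's median. Green points were called higher, purple lower and white points were not called at an adjusted p of 0.05; values beyond about 8 belong mostly to genes with few or no counts in 1 population and depend on the fit's prior count.

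Epcam, an epithelial cell adhesion molecule, ranged from 726 to 795 CPM with a median of 778 in Sox2-positive libraries, while the Sox2-negative libraries held 36.3, 40.2, 50.8 and 46.7 CPM. The log2 fold change was 4.06 (SE 0.12, adjusted p 1.80e-13). The basal keratins Krt5 and Krt14 stood at 1067 ± 351 and 1272 ± 287 CPM (SD, n = 7) against 74.3 ± 9.67 and 99.4 ± 10.5 (n = 4), so the Sox2-negative libraries were low but not empty for both. Krt17, a keratin of oral and appendage epithelium, ranged from 944 to 1691 CPM with a median of 1562, against 42.4, 23.5, 72.3 and 41.0 CPM. Krt15, often used as a mark of epithelial stem cells, ranged from 88.2 to 279.5 CPM with a median of 241, and was 2.31, 0.260, 3.03 and 0.782 CPM in the Sox2-negative libraries (log2 fold change 6.92, adjusted p 1.61e-08). Keratin sums were 3356 and 3220 CPM in Sox2-positive libraries 1 and 2 but 5170 to 5751 in libraries 3 to 7, so the level varied between the sub-groups of libraries. All Sox2-negative keratin sums, from 297 to 334 CPM, lay below both. Krt10, a keratin of stratified layers, was 24.9 ± 5.33 against 17.8 ± 3.70 CPM and was not called (adjusted p 0.171).

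Desmosomes join keratin filaments of neighbouring cells, and their plaque and cadherin genes moved with the keratins. Dsp, the plaque protein desmoplakin, was 440.2 ± 59.8 CPM against 26.2 ± 7.18 (log2 fold change 3.98, SE 0.20). Pkp2, a plakophilin of the same plaque, was 38.5 ± 9.52 against 0.155 ± 0.112 CPM. Dsc2 and Dsc3, desmosomal cadherins, had log2 fold changes of 5.54 and 4.33. Cdh1, the epithelial cadherin, differed less, at 145 ± 28.5 against 33.2 ± 10.8 CPM (log2 fold change 2.04, adjusted p 1.19e-06). Among tight junction genes, Cldn10 was 355 ± 29.4 CPM against 5.09 ± 2.27, and Cldn1 278 ± 9.56 against 31.4 ± 20.5. Tjp1, a scaffold protein that many cell types use, was not called, at a log2 fold change of -0.35 (adjusted p 0.399).

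The epithelial attachment to the basement membrane uses laminins. The laminin chain genes Lama3 and Lamb3 had log2 fold changes of 5.38 and 3.54. The Sox2-negative level of Lama3 came mostly from library 3, at 8.62 CPM, and without that library the log2 fold change was 7.49. Fras1, an extracellular protein at the junction of epithelium and mesenchyme, was the 1 member that fell, from 118 ± 65.5 to 61.7 ± 17.1 CPM. Its partner Frem2 rose (log2 fold change 1.30).

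Regulators of epithelial identity followed the same direction, with exceptions. Of 14 epithelial transcription factors, all tested, 9 rose and 2 fell (median 3.23). Bnc1, a zinc finger protein of basal keratinocytes, ranged from 61.3 to 96.7 CPM with a median of 72.9, and 1 count in library 3 was all that the Sox2-negative libraries held. That is a ratio of 1986 with a 95% counting interval from 357 to 78456. Trp63, the master regulator of stratified epithelium, was 322 ± 26.3 CPM against 39.5 ± 7.63 (log2 fold change 2.94, SE 0.14). Grhl2 and Grhl3, grainyhead factors of epithelium, rose by 3.51 and 4.50 on the log2 scale, and Grhl3 by 6.70 without Sox2-negative library 1. Ovol1, which acts in epithelial differentiation, was 6.44 ± 2.35 CPM with no count in any Sox2-negative library, at least 15.2-fold higher. The 2 that fell were Tfap2a and Tfap2c (log2 fold changes -1.10 and -2.32), which are also used by cranial neural crest. Esrp1 and Esrp2, splicing regulators of epithelial isoforms, rose by 2.56 and 3.81, while Rbfox2 and Mbnl1, splicing regulators of mesenchymal isoforms, fell by 1.61 and 1.23 on the same scale.

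Genes of the mesenchymal state were lower, with 1 exception. Of 9 listed and tested, 8 fell and 1 rose (median -4.61). Zeb1, Zeb2 and Snai1, repressors of epithelial genes, fell from 53.6 ± 3.55, 74.0 ± 24.2 and 80.2 ± 21.7 CPM to 1.20 ± 0.691, 3.00 ± 1.83 and 0.544 ± 0.509 CPM. Snai2, a repressor of the same family, went the other way. Its Sox2-positive values ranged from 144 to 182 CPM with a median of 166, and the Sox2-negative values were 31.1, 14.8, 13.0 and 40.5 CPM, with no overlap (log2 fold change 2.62, adjusted p 4.36e-07). Vim, the intermediate filament of mesenchyme, was 132 ± 16.7 CPM against 609 ± 124, and Fn1, fibronectin, 12.1 ± 2.73 against 394 ± 69.5.

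Proteins of the Zeb and Snai families bind E-boxes of the form CACCTG, and the promoters of Epcam and Krt7 hold it, which is why both are shown. The sequences run from 250 bases before to 50 after the start of the gene in RefSeq on GRCm38.p6, 5′ to 3′ on the gene's strand. Epcam lies at chr17:87635729-87636028 (plus strand) and Krt7 at chr15:101412153-101412452 (plus strand). Capitals mark CACCTG on either strand.
Epcam: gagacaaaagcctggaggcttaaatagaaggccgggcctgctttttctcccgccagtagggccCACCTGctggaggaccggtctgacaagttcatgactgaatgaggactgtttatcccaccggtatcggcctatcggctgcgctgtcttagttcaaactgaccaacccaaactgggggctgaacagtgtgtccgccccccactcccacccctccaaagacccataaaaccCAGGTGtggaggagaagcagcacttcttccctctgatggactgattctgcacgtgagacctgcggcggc
Krt7: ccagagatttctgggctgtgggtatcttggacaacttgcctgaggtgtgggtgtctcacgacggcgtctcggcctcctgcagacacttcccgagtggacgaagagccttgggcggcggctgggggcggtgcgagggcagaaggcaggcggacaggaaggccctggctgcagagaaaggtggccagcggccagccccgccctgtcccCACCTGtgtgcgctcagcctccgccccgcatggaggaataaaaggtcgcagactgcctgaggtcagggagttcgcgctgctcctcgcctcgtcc
Epcam holds 2 matches and Krt7 holds 1. Krt7, a keratin of simple epithelium, was 43.6 ± 8.97 CPM against 0.491 ± 0.201. The same letters occur in 20.2% of 32851 mouse promoters of this length. A match describes the letters only, and binding was not measured.

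Dental epithelial regulators split between the populations. Of 15 listed, 11 were tested, 7 rose and 4 fell (median 1.20). With any single Sox2-negative library left out, or with libraries 1 and 2 of both populations left out, 13 passed the count filter, 9 rose and 4 fell (median 2.60 to 3.30). With single Sox2-positive libraries left out, 11 were tested, 7 rose and 4 fell (median 1.16 to 1.25). The filter asks for counts in as many libraries as the smaller population holds, so fits with fewer Sox2-negative libraries admit more genes. The higher count and median came with the genes admitted, and are no added support. Isl1, a factor of incisor epithelium, ranged from 260.3 to 354 CPM with a median of 310.1, against 14.9, 13.6, 21.8 and 13.1 CPM (log2 fold change 4.23, SE 0.17, adjusted p 7.11e-12). Tbx1, which is needed for incisor epithelium to renew, was 253 ± 63.6 CPM against 29.1 ± 7.03 (log2 fold change 3.03). Within the Sox2-positive population, Tbx1 was 164 and 160.3 CPM in libraries 1 and 2 and at least 271 in the other 5, so the sub-group of libraries moved with it. Nkx2-3, Dlx2 and Bcl11b rose by 2.81, 1.20 and 0.64. Irx2 was 4.56 ± 1.65 CPM with no count in Sox2-negative libraries, at least 10.8-fold higher.

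The 4 that fell were Sp6, Dlx3, Msx2 and Lef1. Sp6, also called epiprofin, serves ameloblast differentiation, and was 147 ± 16.3 CPM against 227 ± 39.0 (log2 fold change -0.70). Dlx3, a factor of enamel formation, was 97.4 ± 20.2 against 259.5 ± 29.2 CPM (log2 fold change -1.50). Msx2, which is active in both epithelium and mesenchyme, fell by 0.53 on the log2 scale. Lef1, the Wnt-dependent factor, was 2.04 ± 2.46 against 33.5 ± 5.94 CPM.

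Enamel matrix genes were higher in Sox2-negative cells. Of 14 listed, 9 were tested, 1 rose and 5 fell (median -0.97). Amelx, amelogenin and the main enamel matrix protein, had 361, 376, 434 and 441 CPM in the Sox2-negative libraries. The Sox2-positive libraries ranged from 4.18 to 8.44 CPM with a median of 6.50, well apart (log2 fold change -5.95, SE 0.17, adjusted p 1.19e-13). Ambn, ameloblastin, was 1.44 ± 1.29 CPM against 168 ± 34.6. Enam, enamelin, had no count in any Sox2-positive library and 11.2, 17.3, 16.04 and 12.8 CPM in the Sox2-negative libraries, at least 20.3-fold lower. Mmp20, the protease of secretory ameloblasts, was 5.07 ± 1.54 CPM in Sox2-negative cells and had 2 counts in 1 Sox2-positive library. The genes of the later maturation stage were scarce: Amtn had no count in any library, and Klk4 was found in Sox2-positive library 3 alone, at 1.55 CPM. The 1 that rose was Fam83h, a keratin-binding protein mutated in enamel defects, at 25.7 ± 7.35 CPM against 2.50 ± 2.08. The plot of dental epithelial and enamel genes gives these values by library.

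**Figure D2:**
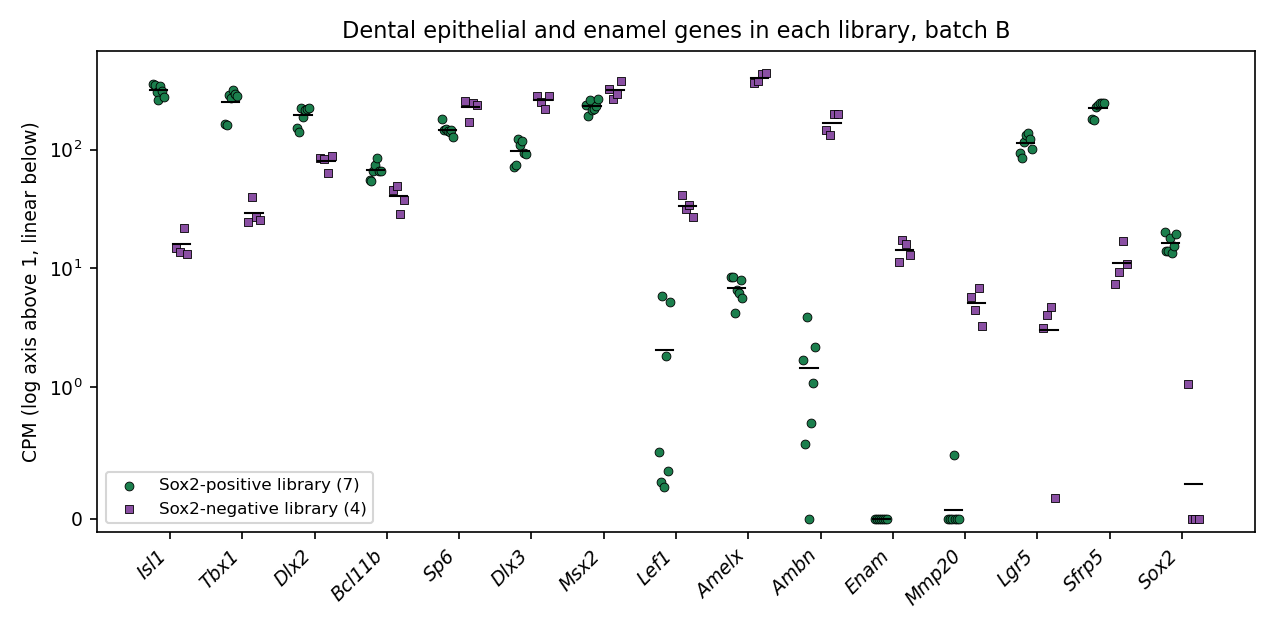
CPM (vertical axis, logarithmic above 1 and linear below) of 15 dental epithelial, enamel and stem cell genes in each of 7 Sox2-positive (green circles) and 4 Sox2-negative libraries (purple squares); bars are means. Isl1, Tbx1, Lgr5 and Sfrp5 lie higher in every Sox2-positive library, and Amelx, Ambn, Enam and Mmp20 higher in every Sox2-negative library.

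Genes reported as stem cell marks of the incisor did not move as 1 group. Of 12 listed and tested, 4 rose and 4 fell (median 0.12), beside 27.1% and 27.6% of all tested genes. The counts alone thus say little about these genes. Besides Sox2, whose rise was set by the sort, those that rose were Lgr5, Sfrp5 and Etv5. Lgr5, a receptor for R-spondins, ranged from 85.1 to 138 CPM with a median of 116 in Sox2-positive libraries, against 3.14, 4.02, 4.69 and 0.156 CPM (log2 fold change 5.11, SE 0.40, adjusted p 2.91e-08). Sfrp5, a secreted Wnt inhibitor of the outer epithelium, was 223 ± 30.1 CPM against 11.1 ± 4.09 (log2 fold change 4.26). Gli1, Ptch1, Igfbp5 and Abcg2 fell by 0.42, 2.06, 0.93 and 3.85. Bmi1, a Polycomb protein, and Lrig1, a brake on growth factor receptors, were not called, at 37.4 ± 5.70 against 27.6 ± 6.71 and 19.0 ± 11.3 against 14.7 ± 10.6 CPM (adjusted p 0.157 and 0.630). Among the 17 Sox family genes, 12 were tested, 4 rose (Sox9, Sox10, Sox11, and Sox2 as the gene of the sort) and 6 fell. Sox9, which the stellate reticulum and outer epithelium use, was 327 ± 37.8 CPM against 101 ± 20.5 (log2 fold change 1.61). Sox4 fell from 365 ± 30.8 to 194 ± 17.0 CPM, and the endothelial factors Sox17 and Sox18 had 5.10 ± 3.52 and 44.6 ± 13.5 CPM in Sox2-negative cells.

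In the fibroblast growth factor pathway, 19 genes were listed and 17 tested. Of these, 5 rose and 8 fell (median -0.36), beside 27.1% and 27.6% of all tested genes. Fgf3 and Fgf10, ligands made by dental mesenchyme that maintain the loop, were 14.7, 24.4, 25.6 and 31.9 CPM and 73.3, 71.3, 60.7 and 111 CPM in the Sox2-negative libraries. Fgf3 had no count and Fgf10 had 1 count in the 7 Sox2-positive libraries. Fgf9, a ligand of epithelium, was 12.6 ± 3.06 against 7.31 ± 6.37 CPM and was not called (adjusted p 0.200). Sox2-negative library 4 held 16.4 CPM of it, and without that library Fgf9 was higher in Sox2-positive cells (log2 fold change 1.48, adjusted p 0.00940). Of the receptors, Fgfr1 rose (887 ± 123 against 476 ± 64.0 CPM), Fgfr3 fell (27.8 ± 9.35 against 64.9 ± 35.6), and Fgfr2, the usual epithelial receptor for Fgf10, was 121 ± 19.3 against 125 ± 15.9 CPM and was not called (adjusted p 0.460). Feedback inhibitors differed within the Sprouty family. Spry2 ranged from 105 to 168 CPM with a median of 123 against 37.5, 23.9, 49.0 and 49.7 CPM, a log2 fold change of 1.63. Spry4 went the other way, at 3.44 ± 1.52 against 50.2 ± 15.9 CPM (log2 fold change -4.02), and Spry1 was not called (37.3 ± 6.11 against 38.4 ± 7.89 CPM). Spred1, Dusp6 and Etv5, targets of the pathway, rose by 1.60, 1.89 and 1.73 on the log2 scale.

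In the bone morphogenetic protein and transforming growth factor pathways, 21 of 22 genes were tested. Of these, 5 rose and 10 fell (median -0.36), beside 27.1% and 27.6% of all tested genes. Bmp4, a mesenchymal ligand that promotes ameloblast differentiation, was 179 ± 24.6 CPM in Sox2-negative and 10.6 ± 2.40 in Sox2-positive cells (log2 fold change -4.17). Bmp2 and Bmp5 were 46.2 ± 8.35 and 23.3 ± 4.30 CPM against 0.524 ± 0.716 and 0.127 ± 0.162. Bmp7 overlapped between the groups, at 82.9 ± 22.1 against 83.3 ± 24.6 CPM, and was not called (adjusted p 0.722). Fst, follistatin, an antagonist of activin that limits enamel to the labial side, ranged from 50.4 to 107 CPM with a median of 84.9, against 5.03, 9.60, 3.48 and 18.8 CPM (log2 fold change 3.11). Its target Inhba, the activin chain, fell from 104 ± 31.3 to 64.7 ± 10.4 CPM. Tgfb2 rose to 221 ± 28.6 from 80.1 ± 8.84 CPM while Tgfb3 and the receptor Tgfbr2 fell by 4.31 and 1.89. The targets split, with Id3 up by 0.58 and Id1, Id2 and Smad6 down by 0.59, 1.11 and 2.35.

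In the Wnt pathway, 29 genes were listed, 27 tested, 5 rose and 19 fell (median -3.73). Among ligands, Wnt5a, Wnt6, Wnt10a and Wnt11 fell by 3.73, 1.14, 2.10 and 1.90, and Wnt4 rose by 1.40. R-spondins, the ligands of the Lgr receptors, were on the Sox2-negative side: Rspo1 was 35.6 ± 8.23 CPM and Rspo2 20.9 ± 3.72, with 0.637 ± 0.677 CPM and no count in Sox2-positive cells. Among receptors, Lgr4 rose (315 ± 42.7 against 122 ± 26.9 CPM) as Lgr5 did, and Lgr6 fell, from 51.2, 41.7, 51.4 and 51.9 CPM in the Sox2-negative libraries to at most 0.867. Axin2, a target that reports active signalling, was 37.0, 32.2, 34.3 and 31.6 CPM in the Sox2-negative and ranged from 0 to 2.25 CPM with a median of 0.928 in the Sox2-positive libraries (log2 fold change -4.89). Notum, an enzyme that inactivates Wnt ligands, was 148 ± 32.7 CPM against 0.812 ± 1.02. Secreted inhibitors separated by gene. Sfrp2 reached 1802, 1571, 1700.4 and 1775 CPM in Sox2-negative libraries and at most 2.90 in Sox2-positive ones (log2 fold change -10.94, and -11.71 without Sox2-positive library 6). Frzb, Sfrp4, Dkk1 and Wif1 also fell, while Sfrp5 and Sostdc1 rose, the latter to 703 ± 83.5 from 308 ± 31.0 CPM.

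In the hedgehog pathway, 12 genes were tested, 3 rose and 5 fell (median -0.25), beside 27.1% and 27.6% of all tested genes. Shh, the ligand of the transit-amplifying and ameloblast layer, was 32.9 ± 6.94 CPM in Sox2-positive libraries, and 50.7, 31.0, 23.8 and 66.4 CPM in the Sox2-negative libraries, which overlap. It was not called (log2 fold change -0.46, adjusted p 0.138), but was called lower without Sox2-negative library 3 (log2 fold change -0.65, adjusted p 0.0271). Ptch1, a receptor that is also a target, was 606, 591, 859 and 722 CPM in Sox2-negative libraries and ranged from 146 to 211 CPM with a median of 171 in Sox2-positive ones. Hhip, a decoy for the ligand and a target in mesenchyme, was 0.823 ± 0.667 against 108 ± 19.1 CPM. Smo, the transducer, and Boc, a co-receptor, rose by 0.62 and 1.25, and Gas1 and Gli3 fell by 2.62 and 1.17. Without the libraries numbered 1 and 2, 2 rose and 4 fell.

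The other pathways had fewer members. In the Notch list of 15, 14 were tested, 6 rose and 4 fell, beside 27.1% and 27.6% of all tested genes. Notch1, Notch2, the ligand Jag2, and the targets Hey2 and Nrarp were higher, with Nrarp at 20.3 ± 5.14 CPM against 0.215 ± 0.250. Notch3 and Dll4, genes of mural and endothelial cells, fell from 37.9 ± 3.07 and 8.01 ± 3.80 to 6.88 ± 1.99 and 0.426 ± 0.663 CPM. Of 4 ectodysplasin genes, 3 were tested: the ligand Eda and the adaptor Edaradd rose by 1.78 and 1.97 (2.37 for Eda without Sox2-negative library 4), and the receptor Edar was not called (2.26 ± 2.02 against 3.12 ± 2.32 CPM). Among 10 insulin-like growth factor genes, 1 rose and 8 fell (median -1.41). Igf2, a fetal growth factor, was 1718, 1782, 1618 and 1728 CPM in Sox2-negative libraries and ranged from 99.3 to 121 CPM with a median of 108 in Sox2-positive ones. The 1 that rose was Igfbp2, a binding protein, at 588 ± 87.9 against 55.4 ± 12.4 CPM. In the platelet-derived growth factor system, the ligand Pdgfa rose (207 ± 28.4 against 46.1 ± 15.7 CPM) and its receptor Pdgfra fell (42.3 ± 7.11 against 292 ± 13.96 CPM). Cxcl12, a chemokine of stroma, was 204 ± 33.3 CPM in Sox2-negative and 1.04 ± 1.06 in Sox2-positive cells.

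**Figure D3:**
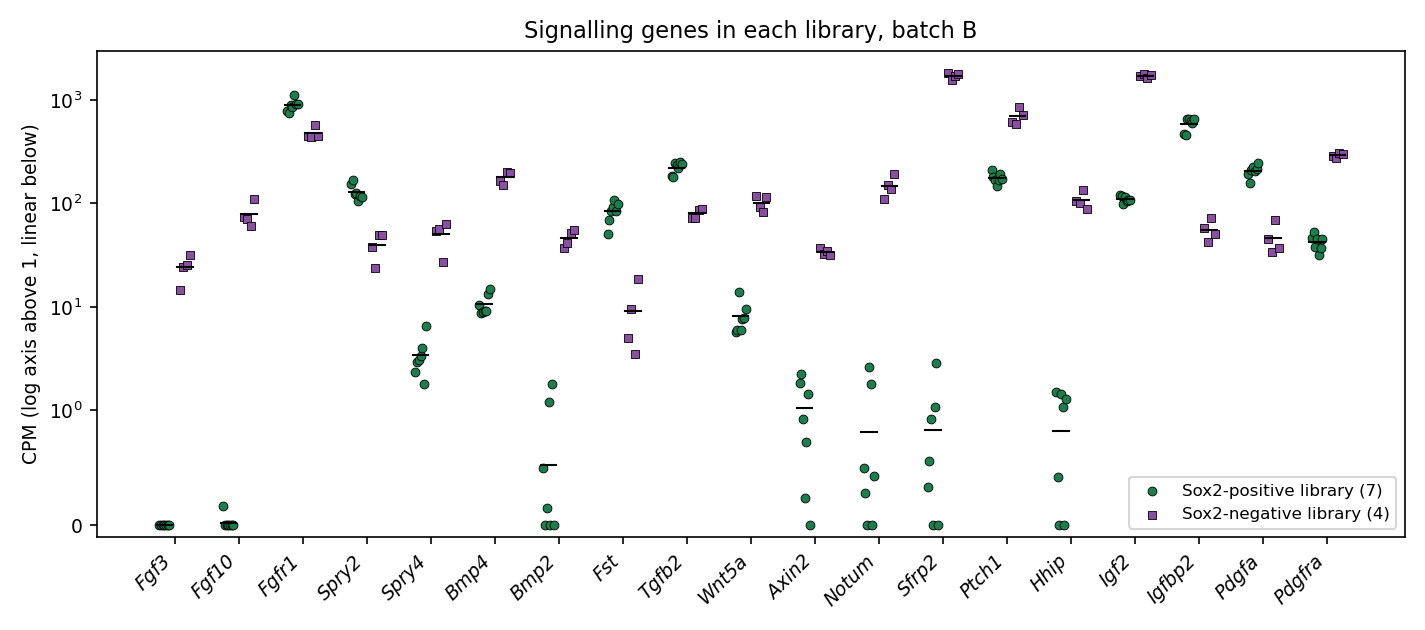
CPM (vertical axis, logarithmic above 1 and linear below) of 19 signalling genes in each of 7 Sox2-positive (green circles) and 4 Sox2-negative libraries (purple squares); bars are means. Fgf3, Fgf10, Bmp2, Notum, Sfrp2 and Hhip lie near 0 in Sox2-positive libraries, and Spry2, Fst, Tgfb2, Igfbp2 and Pdgfa lie higher there.

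Genes of dental mesenchyme were high in the Sox2-negative libraries. All 18 mesenchymal transcription factors were tested, 17 fell and 1 rose (median -8.67, or -5.84 with genes at 0 counts set to their bound). Of the 18, 5 had no count in any Sox2-positive library, so the count filter fixed their direction. Twist2, a factor of craniofacial mesenchyme, was 99.8, 73.5, 73.1 and 88.0 CPM in the Sox2-negative libraries. It had no count in any Sox2-positive library, at least 118-fold lower. Osr2, which patterns tooth mesenchyme, was 96.7, 73.8, 96.4 and 77.5 CPM and also had no count in Sox2-positive cells, at least 122-fold lower. Msx1 and Pax9, needed for tooth development in mesenchyme, were 373 ± 48.9 and 87.2 ± 11.3 CPM against 0.588 ± 1.12 and 0.103 ± 0.273. Dlx5 overlapped between the groups and fell by 0.35 (adjusted p 0.0423). The 1 that rose, Lhx6, was 8.81 ± 3.78 against 2.77 ± 2.45 CPM (adjusted p 0.0359), and the groups overlapped. The calls of Dlx5 and Lhx6 were both lost when single libraries were left out, with adjusted p up to 0.184 and 0.0954.

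All 22 collagen and matrix genes fell (median -4.24). Col1a1, a chain of type I collagen, was 4917, 4606, 5679 and 6279.7 CPM in Sox2-negative libraries and ranged from 21.5 to 52.7 CPM with a median of 33.8 in Sox2-positive ones. Its partner chain Col1a2 fell less, to 546 ± 42.8 from 2714 ± 175 CPM. The log2 fold changes were -7.31 (SE 0.21) and -2.40 (SE 0.08). Of 11 odontoblast and bone genes, 10 were tested and all fell (median -7.20, bound -5.70). Of the 11, 2 had no count in any Sox2-positive library, which fixes the direction of any such gene that passed the count filter. Dspp, the dentin protein of odontoblasts, was 54.4, 51.4, 45.4 and 37.0 CPM in Sox2-negative libraries, and Bglap, osteocalcin, 89.4, 80.9, 60.1 and 52.7. Spp1, osteopontin, was 1173, 1250.4, 2341 and 1368 CPM, highest in library 3, against at most 4.22 in Sox2-positive libraries. Bglap and Bglap2 are near-identical neighbours, so the division of reads between them is uncertain.

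The pericyte and smooth muscle list was mixed: of 12, 10 were tested, 2 rose and 6 fell. Rgs5 and Pdgfrb, pericyte genes, fell from 72.9 ± 13.1 and 126 ± 12.3 to 1.42 ± 0.975 and 10.2 ± 2.20 CPM. Tagln, an actin-binding protein, rose (208 ± 11.9 against 49.0 ± 11.9 CPM, log2 fold change 2.00). Acta2, smooth muscle actin, was 205 ± 12.2 against 202 ± 23.2 CPM and was not called (adjusted p 0.637). Of 17 endothelial genes, all tested, 16 fell and 0 rose (median -5.53, bound -4.97). Cdh5, the endothelial cadherin, was 45.5, 47.1, 33.4 and 31.6 CPM in Sox2-negative libraries and had 2 counts in all 7 Sox2-positive libraries together. Their summed list was 445 to 582 CPM against 29.9 to 50.9, and the 1 gene not called, Erg, stood at 2.65 ± 1.16 and 3.20 ± 1.42 CPM.

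Red blood cell transcripts had the lowest median log2 fold change of the 48 lists. Of 12 erythroid genes listed, 11 had a row, 6 were tested and 6 fell (median -13.13). Their summed level was 49315 to 53676 CPM in Sox2-negative and 1.09 to 12.04 CPM in Sox2-positive libraries. Hba-a1 and Hba-a2, the alpha globins, were 14531, 15229.5, 14447 and 14269.5 and 18912, 20411, 16682 and 16975 CPM in the Sox2-negative libraries. The Sox2-positive libraries reached at most 2.67 and 5.02 CPM. Hbb-bs and Hbb-bt, the adult beta globins, were 13867 ± 472 and 3800.2 ± 441 CPM against 1.12 ± 1.34 and 0.312 ± 0.420, log2 fold changes of -13.37 and -13.21. Copies within each pair are near-identical, and how reads were divided between them is uncertain. Alas2, the heme enzyme of red cells, was 294 ± 76.1 CPM against 1.34 ± 1.04. The embryonic globin Hbb-bh1 had no count, and Klf1 and Gata1, factors of red cell precursors, were below 1 CPM in the mean of both populations.

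The globin promoters are shown because these genes moved together by the largest fold. Hbb-bs is at chr7:103827879-103828178 (minus strand) and Hba-a1 at chr11:32283422-32283721 (plus strand) on GRCm38.p6, in RefSeq. Capitals mark CCAAT and CACCC on either strand, boxes known from globin promoters.
Hbb-bs: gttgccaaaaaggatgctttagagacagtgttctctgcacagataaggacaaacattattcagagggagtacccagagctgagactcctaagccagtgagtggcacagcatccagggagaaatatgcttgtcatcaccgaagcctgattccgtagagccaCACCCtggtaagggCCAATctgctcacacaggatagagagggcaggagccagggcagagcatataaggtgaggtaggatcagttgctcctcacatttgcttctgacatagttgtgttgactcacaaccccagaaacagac
Hba-a1: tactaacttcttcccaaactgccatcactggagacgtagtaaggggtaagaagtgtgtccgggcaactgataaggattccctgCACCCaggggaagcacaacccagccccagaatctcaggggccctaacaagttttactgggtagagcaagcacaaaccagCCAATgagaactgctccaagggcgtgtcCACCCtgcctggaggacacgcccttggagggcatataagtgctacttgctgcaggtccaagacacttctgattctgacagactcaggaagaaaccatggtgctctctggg
Hbb-bs holds 1 CCAAT and 1 CACCC, and Hba-a1 holds 1 CCAAT and 2 CACCC. The first motif, CCAAT, occurs in 37.4% and CACCC in 57.5% of the 32851 promoters, so neither is rare.

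All 11 neutrophil genes were tested and fell (median -10.11, bound -5.72), with a summed level of 608 to 677 CPM against at most 1.81. Of these, 8 had no count in any Sox2-positive library, so the count filter fixed their direction. S100a8 and S100a9, calcium-binding proteins of neutrophils, were 179, 215, 226 and 224 and 161, 156, 156 and 166 CPM in the Sox2-negative libraries. Neither had a count in a Sox2-positive library, which puts them at least 298-fold and at least 225-fold lower. BC100530, a gene of the stefin A family whose members are near-identical, was 91.3, 92.8, 67.8 and 66.7 CPM and had no count in Sox2-positive libraries. Of 14 macrophage genes, 11 were tested and all fell (median -8.83, bound -4.12), and 7 of the 14 had no count in any Sox2-positive library. The count filter fixed the direction of those of the 7 that were tested. Csf1r, the macrophage growth factor receptor, was 38.4, 51.9, 49.3 and 23.3 CPM in Sox2-negative libraries with no count on the other side. All 4 tested osteoclast genes fell, and Mmp9 and Ctsk, proteases of the bone-resorbing cell, were 475 ± 80.6 and 190.3 ± 27.0 CPM against 0.343 ± 0.344 and 0.697 ± 0.794. The 4 tested mast cell genes fell as well (median -7.23, bound -3.45). Of the 8 listed, 6 had no count in any Sox2-positive library, which fixes the direction of any of them that were tested. Of 7 lymphoid genes, 4 were tested, 3 fell and Trbc2, a T cell receptor constant segment, rose from 0.472 ± 0.943 to 3.56 ± 0.681 CPM, with Cd3e at 0 in every Sox2-positive library. The call of Trbc2 was lost without Sox2-negative library 2, 3 or 4 (adjusted p up to 0.0590).

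**Figure D4:**
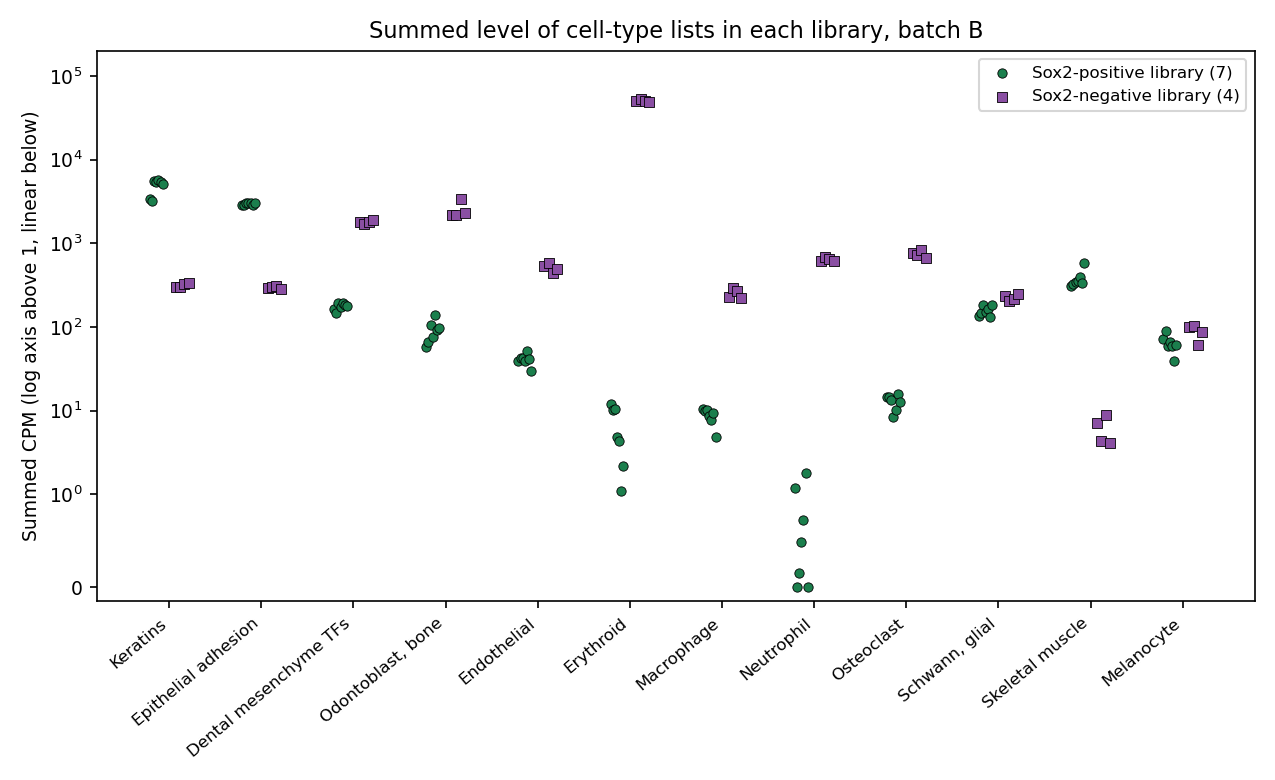
Summed CPM of 12 cell-type lists (vertical axis, logarithmic above 1 and linear below) in each of 7 Sox2-positive (green circles) and 4 Sox2-negative libraries (purple squares). Erythroid genes differ most, at 49315 CPM or more against at most 12.04, and skeletal muscle genes are the list beside the 2 epithelial ones that lies higher in every Sox2-positive library.

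Skeletal muscle genes were higher in Sox2-positive cells. Of 11 listed, 9 were tested, 7 rose and 0 fell (median 8.69, or 6.58 with genes at 0 counts set to their bound). Of the 11, 4 had no count in any Sox2-negative library, so the count filter fixed their direction. The summed list was 309 to 575 CPM in Sox2-positive libraries and 4.06 to 8.78 in Sox2-negative libraries. Of the 10 genes with the highest fold change by the naming rule, 4 belong to it, namely Actc1, Ckm, Myog and Acta1.

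Actc1, a sarcomeric actin of heart and developing skeletal muscle on chromosome 2 from 114047282 to 114053548, ranged from 82.9 to 170.0 CPM with a median of 100.01. It had no count in any Sox2-negative library, at least 256-fold higher. Acta1, skeletal actin, ranged from 103 to 178 CPM with a median of 122, against 0, 0, 1.21 and 0 CPM (log2 fold change 8.69, SE 0.51, adjusted p 7.37e-10, and 12.48 without library 3, which leaves no count on that side). Ckm, the muscle creatine kinase, ranged from 34.3 to 71.1 CPM with a median of 53.0 with no count on the other side, at least 122-fold higher. Library 7, the shallowest, was highest for Actc1, Acta1, Ckm and Myog. Every Sox2-positive library lay above every Sox2-negative one for all 7 genes that rose, beside 21% of all tested genes. The 7 are the genes already called higher, and 4 of the list had no count in any Sox2-negative library. This lack of overlap is therefore no added support.

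Among the regulators, 2 were high and 2 were at 0 in the Sox2-positive libraries. Myod1, the myogenic determination factor, ranged from 10.97 to 33.0 CPM with a median of 20.1, and Myog, which drives terminal differentiation, from 25.5 to 93.3 CPM with a median of 53.2. Both were at 0 in all 4 Sox2-negative libraries, so Myod1 was at least 46.5-fold and Myog at least 122-fold higher. Pax7 and Myf5, which mark muscle stem and early progenitor cells, had no count in any of the 7 Sox2-positive libraries. Their Sox2-negative means were 0.0628 and 0.258 CPM by column total, under the floor of 3 counts, so both were scarce in both populations. Myh3, embryonic myosin, was 5.58 ± 4.04 against 0.0378 ± 0.0756 CPM, and Des, desmin, 4.17 ± 2.05 against 0.452 ± 0.819. Myh8 and Tnnt3 were not called, at 5.65 ± 2.05 against 3.22 ± 0.542 and 3.12 ± 1.41 against 1.69 ± 1.57 CPM (adjusted p 0.179 and 0.311).

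Further muscle genes were looked up after these values had been seen, so they give no independent support. Myl1, a fast myosin light chain, ranged from 32.2 to 52.0 CPM with a median of 39.3, against 0, 0, 0.908 and 0 CPM. Mymk and Mymx, the proteins that fuse myoblasts, were 7.36 ± 1.45 and 6.99 ± 3.84 CPM against 0.0324 ± 0.0649 and no count. Mef2c, a factor of muscle and of endothelium, was lower in Sox2-positive cells (12.1 ± 3.99 against 88.6 ± 17.6 CPM), and so was the acetylcholine receptor chain Chrna1 (6.83 ± 2.45 against 17.9 ± 5.96 CPM). In batch A, prepared on another day from other mice, the same list summed to 0.503 to 13.1 CPM in 6 Sox2-positive and 9.87 to 20.4 CPM in 6 Sox2-negative libraries, with CPM by column total. Myod1 had no count in any of those 12 libraries. The difference between batches was not tested here, and whether other cells in the sorted sample supplied the muscle transcripts was not tested.

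**Figure D5:**
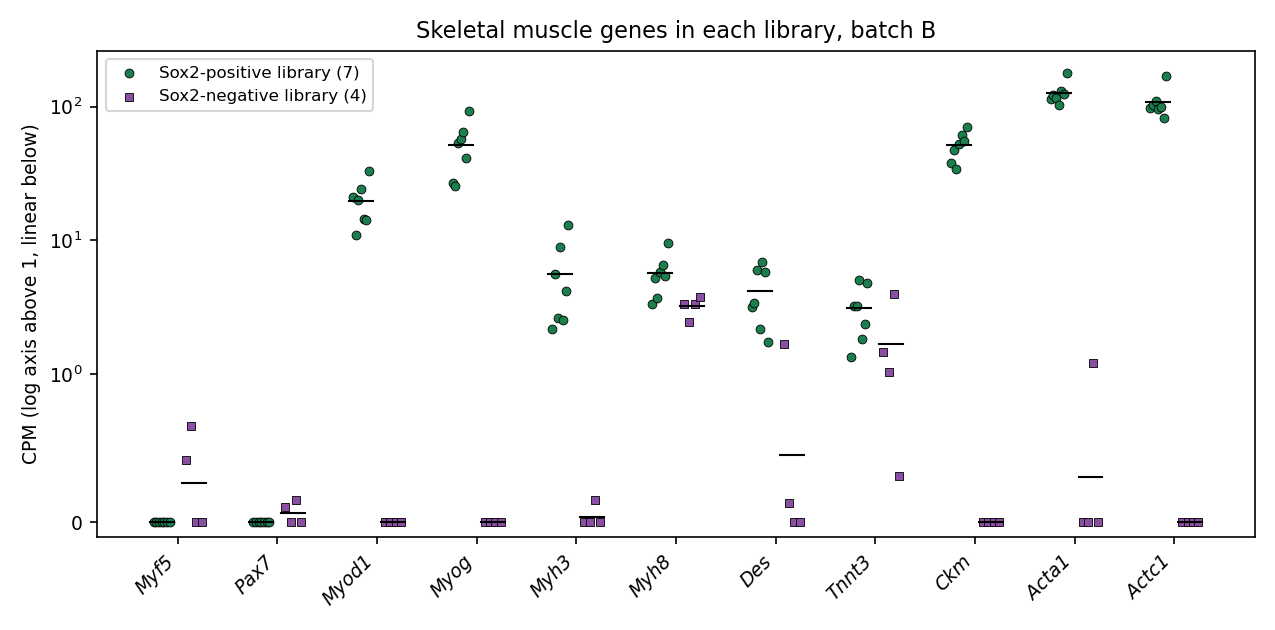
CPM (vertical axis, logarithmic above 1 and linear below) of the 11 skeletal muscle genes listed, in each of 7 Sox2-positive (green circles) and 4 Sox2-negative libraries (purple squares); bars are means. Myod1, Myog, Ckm, Acta1 and Actc1 lie high in all 7 Sox2-positive libraries. Myf5 and Pax7 lie at 0 there and are scarce in the Sox2-negative libraries too.

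The promoters of Acta1 and Myog are shown because both genes were near absent on 1 side of the sort and abundant on the other. Acta1 is at chr8:123894726-123895025 (minus strand) and Myog at chr1:134289754-134290053 (plus strand) on GRCm38.p6, in RefSeq. Capitals mark E-boxes, CANNTG, the form bound by Myod1 and Myog, which includes the CACCTG above.
Acta1: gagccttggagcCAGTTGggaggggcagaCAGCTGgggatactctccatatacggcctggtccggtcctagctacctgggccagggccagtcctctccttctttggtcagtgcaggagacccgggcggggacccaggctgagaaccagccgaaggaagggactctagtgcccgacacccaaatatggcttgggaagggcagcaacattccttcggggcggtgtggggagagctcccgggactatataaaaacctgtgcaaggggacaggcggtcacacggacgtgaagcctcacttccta
Myog: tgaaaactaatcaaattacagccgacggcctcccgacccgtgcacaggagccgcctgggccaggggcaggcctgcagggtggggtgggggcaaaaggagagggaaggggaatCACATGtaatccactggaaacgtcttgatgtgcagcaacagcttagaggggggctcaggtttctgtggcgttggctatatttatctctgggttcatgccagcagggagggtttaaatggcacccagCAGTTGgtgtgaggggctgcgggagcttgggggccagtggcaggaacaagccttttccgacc
Each holds 2 matches. CANNTG occurs in 72.3% of the 32851 promoters, so its presence is common.

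Of 14 Schwann and neural crest glial genes, 10 were tested, 5 rose and 2 fell (median 1.25). Sox10, the factor of glia and neural crest, ranged from 2.95 to 17.2 CPM with a median of 8.87 with no count in any Sox2-negative library, at least 19.8-fold higher. Gfra3, a receptor of crest-derived cells, was 16.2 ± 3.44 CPM against 0.704 ± 1.21. Erbb3, a neuregulin receptor, rose by 2.60 on the log2 scale. S100b and Pmp22 fell, to 1.66 ± 0.996 and 29.9 ± 4.64 from 29.6 ± 8.09 and 139 ± 10.5 CPM. The summed list was lower in every Sox2-positive library, at 133 to 185 CPM against 207 to 246. Foxd3, a defining gene of early crest, was 0.312 ± 0.352 CPM in Sox2-positive libraries and absent from the tested genes. Of 5 melanocyte genes, 3 were tested, 0 rose and Tyr fell, and of 7 neuronal genes, 2 were tested and Tubb3 fell. In each of these lists 2 fell when certain single libraries were left out. For melanocyte genes these were Sox2-negative 3 or Sox2-positive 2. For neuronal genes they were Sox2-negative 1 or 3, where 3 passed the count filter. The part of such cells in the other results was not tested.

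Of 13 genes of the G2 and M phases, all tested, 9 rose and 1 fell (median 0.91). Ccnb1, the mitotic cyclin, was 118 ± 5.17 CPM against 38.5 ± 11.9, and Cdk1, its kinase, 132 ± 12.8 against 56.0 ± 4.74, neither with overlap. Mki67, a general proliferation mark, was 98.2 ± 19.2 against 114 ± 6.21 CPM and was not called (adjusted p 0.0988). Without Sox2-positive library 1 or 2 it was called lower, with log2 fold changes down to -0.38 (adjusted p from 0.0482 to 0.174 over libraries left out). Top2a fell by 0.63, a call lost without Sox2-negative library 4 (adjusted p 0.0651). Of 14 S phase genes, 6 rose and 1, Mcm3, fell (median 0.31). Tyms, thymidylate synthase, was the farthest, at 166 ± 28.5 against 46.8 ± 13.1 CPM. Among D cyclins and their inhibitors, Ccnd2 rose from 280.2, 297, 264 and 397 CPM in the Sox2-negative libraries to a range from 1160.2 to 1604 CPM with a median of 1434 (log2 fold change 2.10). Ccnd1 fell by 0.85, and the inhibitors Cdkn1a, Cdkn1b, Cdkn1c, Cdkn2b and Cdkn2c fell, Cdkn1a from 353 ± 62.7 to 126 ± 11.9 CPM. The calls of Cdkn1b and Cdkn2b were lost without single Sox2-negative libraries, 1 or 2 for Cdkn1b and 2 or 3 for Cdkn2b (adjusted p up to 0.0547 and 0.169).

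Glycolytic genes were higher, 11 of 16 with 1 lower (median 0.91). Slc2a1, the glucose transporter, ranged from 145 to 200.02 CPM with a median of 189.7 against 17.0, 27.9, 32.4 and 33.8 CPM (log2 fold change 2.58, SE 0.19). Pfkp, the platelet-type phosphofructokinase, was 152 ± 18.5 against 19.2 ± 9.19 CPM, and Aldoa, aldolase, 576 ± 39.3 against 201 ± 21.7. Hk1, hexokinase, fell by 0.53 (adjusted p 0.0464), a call that was lost without single libraries of either population (adjusted p up to 0.0969). The cholesterol list had 4 higher and 6 lower of 19, beside 27.1% and 27.6% of all tested genes, so these counts say little. Its median was -0.17, beside 0.01 over all genes.

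Transcripts of the mitochondrial genome took 3.88% ± 0.278 (SD, n = 7) of the counts in Sox2-positive and 2.07% ± 0.384 (n = 4) in Sox2-negative libraries (two-sided exact permutation test, p 0.00606, the smallest that 4 against 7 can give, adjusted p 0.0121). The 13 genes were not shifted as 1 block: 8 rose and 3 fell (median 0.85). mt-Co1, a chain of cytochrome oxidase, was 391, 360.0, 1328 and 1079 CPM in the Sox2-negative libraries and ranged from 6484 to 7010.4 CPM with a median of 6653 in the Sox2-positive ones (log2 fold change 3.02, adjusted p 3.76e-07). mt-Atp8 had a log2 fold change of 3.70 (4.33 without Sox2-negative library 3), and its neighbour mt-Atp6 one of 1.52. mt-Co2 rose by 0.34, while mt-Nd2, mt-Nd3 and mt-Nd6 fell by 0.53, 0.91 and 0.63. Nuclear copies of mitochondrial genes share such reads, and 2 predicted genes, looked up after the values were seen, differed between libraries. Gm28437 reached 649.9 CPM and Gm28661 299 CPM in Sox2-positive libraries, with 0 in some of these and in all 4 Sox2-negative libraries. The values of single mitochondrial genes are therefore uncertain, and the part of mitochondrial share or RNA quality in other results was not tested.

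Of 9 connexins, which form gap junctions, 5 were tested, 3 rose and 1 fell. Without Sox2-positive library 2, 3 or 7, 4 connexins were tested and 1 rose. Of 12 genes of keratinocyte cornification, 5 were tested, 3 rose and 0 fell, all at low levels (summed 18.3 to 30.4 against 3.48 to 15.3 CPM), and Ivl, involucrin, had no count in any library. Of 10 epidermal growth factor genes, 5 were tested, Erbb2 and Erbb3 rose and Egfr fell, from 23.2 ± 4.65 to 6.95 ± 3.68 CPM. Immediate early genes, which can respond to dissociation, had 1 higher and 5 lower of 11 tested, beside 27.1% and 27.6% of all tested genes. They had 2 higher without Sox2-negative library 2, 3 or 4, where 12 passed the count filter, or without Sox2-positive library 2. Their median log2 fold change was -0.60, and -0.00034 without the libraries numbered 1 and 2, where 0 rose and 3 fell. The summed list was 199 and 169 CPM in Sox2-positive libraries 1 and 2 and 290 to 380 in libraries 3 to 7. In Sox2-negative libraries it was 303 to 356 CPM. Fos, of this group, was 5.58 ± 2.51 against 20.1 ± 9.72 CPM. Of 5 tested interferon-stimulated genes 3 fell, of 4 tested genes of antigen presentation by MHC class II 3 fell, and of 3 tested cartilage genes 2 fell.

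The remaining genes that the naming rule brought up by fold change alone were Tmprss13, Il17re, Dapl1 and Trpv6. Il17re, a receptor chain for interleukin 17C, was the most abundant, ranging from 547 to 743 CPM with a median of 714 against 4.61, 3.50, 7.11 and 4.53 CPM (log2 fold change 7.01, SE 0.20). Tmprss13, a serine protease of the surface of epithelial cells, was 55.9 ± 10.7 CPM against 0.247 ± 0.368. Dapl1 was 52.1 ± 8.45 CPM against 0.412 ± 0.468. Trpv6, a calcium channel, was 52.8 ± 10.1 against 0.588 ± 1.08 CPM, and all but 2.20 CPM in library 1 of the Sox2-negative values lay at or below 0.151.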

How the data were processed

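RNA was measured in 11 batch B libraries, 7 Sox2-positive and 4 Sox2-negative, taken from 1 table of 23 libraries. The table the authors deposited holds estimated counts per gene, not scaled to a common depth. Reads were handled with FastQC, Trimmomatic and Salmon on mm10, per the submitters' processing notes, and versions, annotation and the step from transcripts to genes are not given in the sources used here. All 23 columns were matched to a library, leaving 0 unmatched. Gene names came from GENCODE M21, by Ensembl identifier without version (54094 matched, 99.5%). Qki and Ahsp matched no row and were not analysed here.

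Estimated counts were rounded. Genes were tested with edgeR 4.0.16 (filterByExpr with its default minimum count of 10, TMM scaling, quasi-likelihood F test) in R 4.3.3, p-values were adjusted by Benjamini-Hochberg over 15765 genes, and calls needed an adjusted p below 0.05. CPM used TMM-scaled totals, and a fitted log2 fold change is Sox2-positive minus Sox2-negative. The standard error (SE) beside it is approximate. It is the absolute log2 fold change divided by the square root of its F statistic, not a value estimated by the fit. Where 1 population had no count, a fold is a bound against 3 counts per library in that population. On simulated data for 15765 genes, 25% of 100 genes with a log2 fold of 1 and 73% of 100 with a log2 fold of 2 were called, all with the right sign, with 4 false calls. Only those genes were changed in the simulation, whereas 54.7% of genes were called in the data. The Benjamini-Hochberg adjustment depends on that share, so these percentages do not give the sensitivity of the comparison itself. The lowest chi-square per degree of freedom over library pairs was 5.46, so no pair differed by counting error only and none was merged as a copy. It cannot tell whether libraries came from separate mice or from 1 sort. Library measures were compared by two-sided exact permutation tests over 4 measures.

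Members and gene lists (48 lists, 572 genes) were chosen with earlier results of these data known, so no list was given a test. Named genes were Sox2, then the 10 highest and 10 lowest fold changes among called, non-overlapping genes with at least 50 CPM in the higher group, leaving out Sox2ot, predicted genes, pseudogenes, Xist and Y-linked genes, then members of the lists. Some genes that these rules name are not reported here. Alternatives were RLE and total-count scaling, erythroid genes removed before scaling, other count filters, thinned counts, DESeq2 1.42.0, limma-voom (limma 3.58.1), a fold threshold, a replicate block, a covariate for libraries 1 and 2 or their removal, and each library left out.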

Additional observations from a re-analysis of the deposited data

Results flagged for a closer look

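A library was set apart by Dixon's test at the 95% level, in which its gap to the nearest library is compared with the range of its group. Of 554 groups of values examined, 54 (9.75%) passed, where chance gives about 1 in 20, and groups with all but 1 library at 0 always pass. No explanation was tested for any of them.

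The summed other ligand and receptor pairs reached 419 CPM in Sox2-positive library 7, against 339.7 to 374 in the other libraries of that population. The summed odontoblast and bone genes reached 3399 CPM in Sox2-negative library 3, against 2155 to 2323 in the other libraries of that population. The summed skeletal muscle genes reached 575 CPM in Sox2-positive library 7, against 309 to 389.9 in the other libraries of that population. The summed D cyclins and CDK inhibitors reached 1495 CPM in Sox2-negative library 4, against 1259 to 1299.6 in the other libraries of that population.

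Single Sox2-negative libraries held the only counts of their population for Sox2 (1.05 CPM in library 1), Bnc1 (0.151 CPM in library 3), Acta1 (1.21 CPM in library 3), Myh3 (0.151 CPM in library 3), Myl1 (0.908 CPM in library 3), Mymk (0.130 CPM in library 2) and Trbc2 (1.89 CPM in library 1). Single Sox2-positive libraries held the only counts of their population for Bglap (0.364 CPM in library 5), Cdh5 (0.281 CPM in library 2), Dspp (0.669 CPM in library 1), Fgf10 (0.167 CPM in library 1), Foxf1 (0.963 CPM in library 4), Mmp20 (0.482 CPM in library 4) and Pax9 (0.722 CPM in library 4).

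Sox2-negative library 1 was highest for Trpv6 (2.20 CPM, next 0.151), Cdkn2c (34.2 CPM, next 17.9), Des (1.68 CPM, next 0.130) and Grhl3 (2.31 CPM, next 0.156). Sox2-negative library 2 was highest for Tbx1 (39.6 CPM, next 26.8). Sox2-negative library 3 was highest for Fgfr1 (572 CPM, next 452), Igfbp5 (758 CPM, next 519), Lama3 (8.62 CPM, next 1.05), Spp1 (2341 CPM, next 1368) and Tgfb3 (70.4 CPM, next 48.0). Sox2-negative library 4 was highest for Cdkn1a (446 CPM, next 328), Fos (34.5 CPM, next 17.0) and Gfra3 (2.50 CPM, next 0.314). Sox2-positive library 1 was highest for Mbnl1 (63.7 CPM, next 48.9) and Sp6 (180.5 CPM, next 148). Sox2-positive library 3 was highest for Cxcl12 (3.25 CPM, next 1.34) and Grb10 (9.90 CPM, next 5.19). Sox2-positive library 4 was highest for Gas1 (16.1 CPM, next 11.04). Sox2-positive library 6 was highest for Aldh1a2 (1.81 CPM, next 0.141), Fgfr3 (47.6 CPM, next 30.2), Hand2 (0.543 CPM, next 0.155) and Sfrp2 (2.90 CPM, next 1.09). Sox2-positive library 7 was highest for Actc1 (170.0 CPM, next 109.7), Acta1 (178 CPM, next 131), Cdkn1a (150.1 CPM, next 127), Frzb (2.17 CPM, next 0.141), Lgr6 (0.867 CPM, next 0.335), Msx1 (3.04 CPM, next 0.836) and Sfrp4 (1.73 CPM, next 0.281). Sox2-negative library 2 was lowest for Hk1 (26.7 CPM, next 33.4), Lgr6 (41.7 CPM, next 51.2) and Trp63 (28.2 CPM, next 42.7). Sox2-negative library 4 was lowest for Cldn10 (1.72 CPM, next 5.97). Sox2-positive library 4 was lowest for Spred1 (170.0 CPM, next 216). Sox2-positive library 6 was lowest for Wnt11 (0.724 CPM, next 2.39). Sox2-positive library 7 was lowest for Tjp1 (6.51 CPM, next 21.8).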

How the results depend on the processing

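The number of genes called moved by less than 1.5 times under all but 1 alternative. Against 8623 genes called, the fits gave 8587 with RLE size factors, 8696 with total-count scaling, 8918 with DESeq2, 8985 with limma-voom, 7376 with counts thinned to the smallest library, 6919 without the libraries numbered 1 and 2, and 10571 with no filter beyond 1 count. A test against a fold of 2 (glmTreat) called 3272. Leaving out each library in turn gave 8005 to 8794 calls, 3949 to 4457 higher, 3960 to 4337 lower and 5501 to 6095 over 2-fold. Of the 8550 calls that could be tested without libraries 1 and 2, 8544 kept their direction and 6192 (72.4%) were called again. RLE and total-count scaling moved the median log2 fold change of all genes by -0.06 and 0.08.

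The 4 same-numbered pairs of libraries had correlations of their deviations from 0.0107 to 0.0599, all under 0.1. Each lay above the median of its Sox2-negative library with the other numbers (-0.0184, -0.0167, 0.00932 and 0.00341 for numbers 1 to 4). Only 1 of 4 Sox2-negative libraries matched its own number best. The correlations were this small, so the numbers were not taken to pair samples. A replicate block gave 6668 genes called, 3435 genes called higher and 4931 genes called with a fold over 2, and 6528 (75.7%) of the 8623 calls were called in it. It left Bcl11b, Cdkn2b, Dlx5, Hk1, mt-Nd2 and mt-Nd6 uncalled, and turned the uncalled Edar to a log2 fold change of 0.36.

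Of 225 genes named, 199 kept their direction and their side of the threshold under every alternative that gave them a value. Besides Edar, 3 uncalled genes changed sign: Acta2 to 0.015 with total-count scaling, Spry1 to 0.053 with thinned counts, and Bmp7 to 0.024 with limma-voom and between -0.22 and 0.11 with single libraries left out. Without libraries 1 and 2 the calls of Cdkn1b, Cdkn2c, Chrna1, Dlx5, Gli1, Hk1, Lhx6, Smo and Tfap2a were lost, and Fgfr2 and Mki67 were called lower. Gli1, Dlx5 and Hk1 also lost their calls with total-count scaling. The cause was not tested, beyond the fewer libraries in such fits. With single libraries left out, the difference in genes detected lay between -2850 and -1714 and no longer passed in 9 of 11 cases (adjusted p up to 0.117, exact permutation test). That in total count lay between -3053490 and -2005480 and did not pass in 8 of 11. The differences in mitochondrial share, 1.70 to 1.95 percentage points, and in the share of the top 50 genes passed in all 11. Depth limits the low genes: levels under the floor of 3 counts, which is highest in the shallowest Sox2-positive libraries, cannot be told from 0.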

Other observations

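Genes outside the lists were looked up after their values had been seen, and they are given as values only. Pthlh, a parathyroid hormone related peptide that acts on neighbouring bone and mesenchyme, ranged from 1442 to 1660.4 CPM with a median of 1493 in Sox2-positive libraries, against 44.1, 43.7, 55.4 and 57.7 CPM in Sox2-negative ones (log2 fold change 4.85). Retinoic acid enzymes lay on opposite sides. Cyp26c1, which degrades retinoic acid, was 99.7 ± 38.2 CPM in Sox2-positive and 3.12 ± 1.77 in Sox2-negative libraries, and Aldh1a2, which makes it, was 0.279 ± 0.677 and 61.1 ± 19.3 CPM. Ntrk2, a neurotrophin receptor, was 233 ± 28.1 against 8.43 ± 2.99 CPM, and its ligand neurotrophin 4, listed as Ntf5, was 51.3 ± 12.5 against 1.66 ± 1.81. Nnat, an imprinted gene expressed from the paternal allele, was 662 ± 75.3 against 21.6 ± 4.74 CPM, while the imprinted genes Grb10 and Dlk1 went the other way, at 3.97 ± 2.83 against 544 ± 98.7 and 9.05 ± 2.14 against 216 ± 59.6 CPM.

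On the Sox2-negative side, Foxf1, Foxf2 and Hand2, transcription factors of jaw and visceral mesenchyme, were 77.5 ± 19.6, 90.5 ± 12.1 and 101 ± 18.8 CPM, against 0.138 ± 0.364, 0.0460 ± 0.0786 and 0.0997 ± 0.204 CPM in Sox2-positive cells. Mmp13, a collagenase of bone and cartilage, was 1611, 1771, 1667 and 1144 CPM in the Sox2-negative libraries and at most 1.51 in the Sox2-positive ones. Lars2, a mitochondrial leucyl-tRNA synthetase, was 2977, 3483, 7771 and 7734 CPM in the Sox2-negative libraries and ranged from 734 to 1138 CPM with a median of 1073 in the others. mt-Rnr2, a mitochondrial ribosomal RNA, was 5041, 5475, 7159 and 6601 CPM in the same Sox2-negative libraries and ranged from 4262 to 5473 CPM in the others. Whether the 2 genes share reads was not tested, so the level of Lars2 is uncertain.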
